A study of Mus musculus with 4 samples.

Results

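The genes of bone morphogenetic protein (BMP), growth and differentiation factor (GDF) and transforming growth factor beta (TGF-beta) signalling were followed in sorted cells of the mouse dorsal neural tube. The set was a list of 40 gene symbols, chosen by name: 14 ligands and ligand-processing genes, 6 antagonists and modulators, 10 receptors and 10 Smads and Smurfs. Each gene was read from the array's probe set that carried its symbol alone, the brightest by mean signal where there were several. A probe set of this kind was found for 39 of the 40 genes, and 36 were bright enough to be tested among 12740 genes in all.

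The compared cells came from neural tubes of E10.5 embryos of mixed B6SJLF1 and ICR background, dissected from forelimb to hindlimb and sorted for GFP. Atoh1-GFP cells carried the Atoh1BAC-GFP transgene, a bacterial artificial chromosome (BAC) in which GFP marks the Atoh1-derived lineage of dorsal interneuron 1 (dI1), and were measured on 2 arrays. dNeurog1-GFP cells carried dNeurog1-GFP, in which a Neurog1 enhancer drives GFP in the dorsal tube and marks dorsal interneuron 2 (dI2), and were also measured on 2 arrays. The series describes the 2 arrays of each line as biological replicates. How many embryos were pooled per sample is not given here, and the labels leave unsaid whether the GFP-positive fraction of the sort was hybridised.

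Ligands of this superfamily are secreted dimers that bring together type I and type II serine/threonine kinase receptors. The receptors phosphorylate receptor-regulated Smads, which join Smad4 and enter the nucleus. Smad1, Smad5 and Smad9 serve BMP-type signals and Smad2 and Smad3 serve TGF-beta and activin signals, while Smad6 and Smad7 inhibit the pathway and are themselves induced by it. In the developing spinal cord the roof plate secretes BMPs and Gdf7, which pattern the dorsal progenitor domains beside it, dI1 nearest the roof plate.

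Markers of the 2 lineages followed the labels. Atoh1 had signals of 21412 and 19675 on the Atoh1-GFP arrays (replicates 1 and 2, an order kept throughout), against 1771 and 1861 on the dNeurog1-GFP arrays. Neurog1 had 172 and 176 in Atoh1-GFP cells, against 1388 and 2469 in dNeurog1-GFP cells. All 5 dI1 markers tested lay higher on both Atoh1-GFP arrays than on either dNeurog1-GFP array, and all 5 dI2 markers lay lower. Signals here and below are the deposited MAS5 intensities (Affymetrix summary values per probe set) after each array was brought to a trimmed mean of 500. As deposited, that mean was 250 on the replicate 1 arrays and 500 on the replicate 2 arrays, so arrays of equal number had the same scale. The labels do not say what else such arrays share. Dim probe sets still differed between the replicate numbers: in replicate 1 the 25th percentile of signal was 42.3 for the Atoh1-GFP array, against 34.3 for the dNeurog1-GFP array, and in replicate 2 it was 17.6, against 17.4. Signals are compared between samples for the same probe set, not between genes.

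Markers of differentiation state were not level. Summed over 8 neuron genes, the signal was 51510 and 54713 in Atoh1-GFP cells, against 30255 and 42919 in dNeurog1-GFP cells. With the block described below 4 of the 8 were called higher and 0 lower, where 2.68% and 3.63% of all genes were. Within both replicate numbers 6 of the 8 were higher and 1 was lower, where 33.3% and 33.6% of all genes were. The lower one was Nefl, with 4040 and 4376, against 5352 and 8917. Over 9 progenitor genes the summed signal was 43968 and 35793 in Atoh1-GFP cells, against 62809 and 44926 in dNeurog1-GFP cells. Of the 9, 3 (Sox1, Sox3 and Fabp7) were called lower and 0 higher, and within both replicate numbers 7 were lower and 1 was higher. The shares over all genes are those given for the neuron genes.

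Markers of other tissues also differed. Summed over 8 heart muscle genes, the signal was 2232 and 4526 in Atoh1-GFP cells, against 496 and 2389 in dNeurog1-GFP cells. Over 6 endothelial genes it was 1425 and 682 in Atoh1-GFP cells, against 598 and 532 in dNeurog1-GFP cells, and over 5 measured blood genes 30581 and 31725, against 7809 and 22906. Over 12 mesenchyme genes it was 7832 and 5490, against 3841 and 8442. Over 4 measured neural crest genes it was 1656 and 1025 in Atoh1-GFP cells, against 5961 and 4259 in dNeurog1-GFP cells. Most of that sum was Ednrb, with 1146 and 562, against 5728 and 3467, while Sox10 and Ets1 had opposite signs within the replicate numbers. Over 8 ventral neural tube genes the signal was 884 and 616, against 846 and 2632. Summed over 7 roof plate genes it was 11484 and 9034 in Atoh1-GFP cells, against 13148 and 9697 in dNeurog1-GFP cells. Most of that sum was Zic1, a gene of the dorsal tube at large, with 9276 and 7613, against 11664 and 8238. Of 6 tested roof plate genes, Wnt3a alone was called with the block. It was higher in Atoh1-GFP cells, with 904 and 708, against 373 and 309 (log2 difference 1.16, limma adjusted p = 0.017). The list as a whole did not follow it. Within both replicate numbers 1 of the 6 was higher and 3 were lower, near the shares over all genes (33.3% and 33.6%). The 3 lower ones were Lmx1b, Rspo1 and Zic1, which did not pass, and the median log2 difference over the 6 was -0.11. The roof plate regulator Lmx1a was dim on all 4 arrays (67.9 and 9.88, against 35.1 and 24.3). In such sorted samples, fewer cells of a type and less RNA per cell cannot be told apart. The part of these cell states and tissues in the differences below was not tested.

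Tgfb2, Bmper and Smad7 were higher in Atoh1-GFP cells and Gdf10 was lower, when limma was run with the replicate number as a blocking term, and these were the 4 members of 36 that passed at an adjusted p under 0.05. Without the block 0 of 36 passed, and 7 had an unadjusted p under 0.05 by the same limma model. The background over all 12740 genes was 6.32% called with the block (2.68% toward Atoh1-GFP and 3.63% toward dNeurog1-GFP cells) and 0.220% without it, with 8.61% at an unadjusted p under 0.05. The 4 called members were 11.1% of those tested. The model with the block has 1 residual degree of freedom and that without it has 2, so both lean on the spread shared across genes. An exact permutation test of 2 arrays against 2 cannot go below p = 0.333. The count with the block rose to 11 members after quantile normalization, an alternative chosen after seeing the data, and to 9 on the signals as deposited. Calls over all genes rose as well under these settings. They went from 805 of 12740 to 1691 of 12746 after quantile normalization and to 1169 of 12751 on the signals as deposited.

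The median log2 difference over the 36 tested members, Atoh1-GFP minus dNeurog1-GFP, was 0.21, against 0.01 over all genes. Differences were taken on log2(signal + 32), which shrinks differences of dim genes. Of the members, 19 were higher and 5 lower within both replicate numbers, where the background was 33.3% higher and 33.6% lower. The 2 arrays of one population lay wholly above the other's for 11 members toward Atoh1-GFP and for 4 toward dNeurog1-GFP cells (together 15 members, with a background of 34.8%). The median absolute difference was 0.31 for members and 0.22 for all genes.

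**Figure D1:**
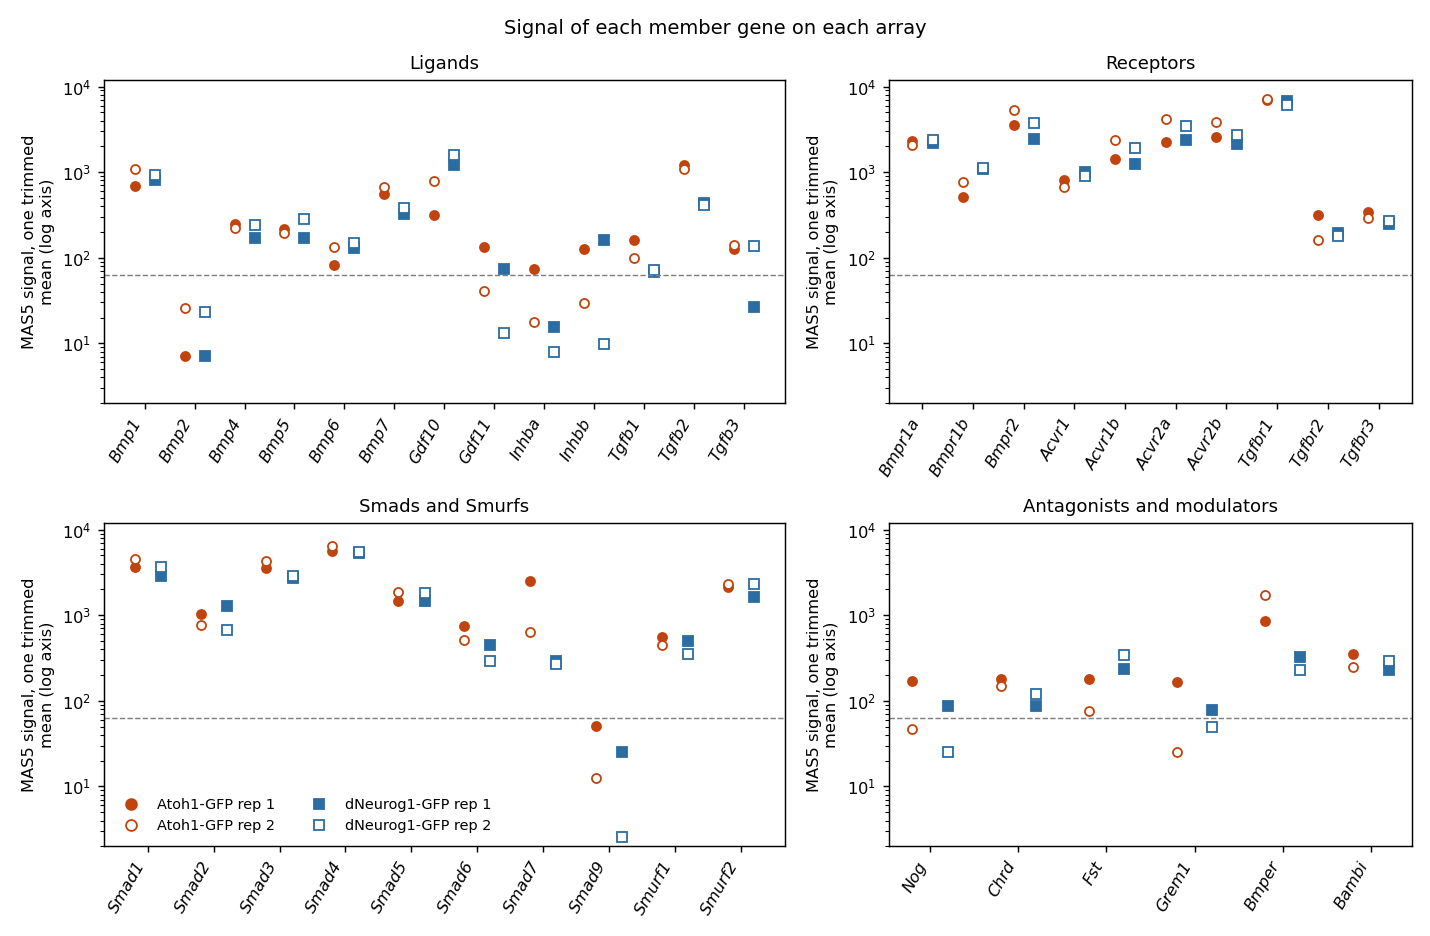
MAS5 signal of the 39 members with a probe set on each of the 4 arrays (vertical log axis, every array at a trimmed mean of 500), by role. Red circles are Atoh1-GFP and blue squares dNeurog1-GFP arrays, filled for replicate 1 and open for replicate 2, and the dashed line at 63.5 is the filter on the mean signal. Tgfb2, Bmper and Smad7 show both red points above both blue ones, and Gdf10 shows the reverse.

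Among the ligands, Tgfb2 rose with the block and the replicates of its brightest probe set differed little. Tgfb2 encodes a TGF-beta ligand that signals through Tgfbr1 and Tgfbr2 with the help of the co-receptor Tgfbr3. It had signals of 1211 and 1085 on the Atoh1-GFP arrays, against 433 and 412 on the dNeurog1-GFP arrays. Both Atoh1-GFP arrays were above both dNeurog1-GFP arrays, and the replicates of each population lay close together. The log2 difference was 1.38, a 2.6-fold higher level, with 1.42 in replicate 1 and 1.33 in replicate 2. Limma gave adjusted p = 0.0085 with the block (standard error 0.14, 95% interval 1.02 to 1.73) and 0.093 without it (standard error 0.23). The other 3 Tgfb2 probe sets above the filter had log2 differences of 1.10, 1.16 and 0.93. Within replicates 1 and 2 these were 0.96 and 1.25, 1.13 and 1.19, and 0.62 and 1.25.

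Gdf10, a secreted ligand closely related to Bmp3, went the other way. It had 319 and 795 in Atoh1-GFP cells, against 1201 and 1594 in dNeurog1-GFP cells. Both Atoh1-GFP arrays were lower, with a wide gap between them. The log2 difference was -1.39, with -1.81 in replicate 1 and -0.97 in replicate 2. Limma gave adjusted p = 0.025 with the block (standard error 0.22) and 0.33 without it. In fits without the block and without a single array, the difference ran from -2.01 (without Atoh1-GFP replicate 2) to -0.78 (without Atoh1-GFP replicate 1). Gdf10 has 1 probe set on the array.

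Bmp7, a BMP made by the roof plate and the overlying ectoderm, had the next largest difference among the ligands. It had 558 and 666 in Atoh1-GFP cells, against 325 and 381 in dNeurog1-GFP cells, without overlap. The log2 difference of 0.74 (0.73 in replicate 1, 0.76 in replicate 2) missed the threshold with the block, at limma adjusted p = 0.060, and without it, at 0.41. With the block it passed after quantile normalization (adjusted p = 0.027) and on the signals as deposited (0.038). A second, dimmer Bmp7 probe set had a log2 difference of 1.15.

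The remaining ligands did not pass in either model. Bmp4, a roof plate BMP, had 246 and 223 in Atoh1-GFP cells, against 168 and 243 in dNeurog1-GFP cells. Bmp5 had 219 and 197, against 169 and 287. For both genes the groups overlapped and the sign differed between the replicate numbers. Bmp6, another roof plate BMP, had 82.4 and 133 in Atoh1-GFP cells, against 131 and 149 in dNeurog1-GFP cells. The log2 difference was -0.32 (adjusted p = 0.52 with the block). Tgfb1 had 163 and 100, against 68.7 and 71.9, without overlap, and its log2 difference was 0.65 (adjusted p = 0.24 with the block). For Tgfb3 the replicates disagreed: it had 127 and 141 in Atoh1-GFP cells, against 26.3 and 139 in dNeurog1-GFP cells, so that the 1.45 within replicate 1 stood against 0.02 within replicate 2.

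Gdf11, which acts in anterior-posterior patterning of the spinal cord, and Inhbb, the activin beta B subunit, were dim and followed the replicate number more than the population. Gdf11 had 134 and 41.2 in Atoh1-GFP cells, against 74.8 and 13.2 in dNeurog1-GFP cells, with a difference of 0.67 log2 units (adjusted p = 0.23 with the block) that ran from 0.046 to 1.29 without single arrays. Inhbb had 126 and 29.6, against 160 and 9.75. In both populations the replicate 1 array was the higher one, as for dim probe sets in general. Bmp1, which is not a ligand but a metalloprotease that cleaves chordin and procollagens, had 696 and 1079 in Atoh1-GFP cells, against 813 and 927 in dNeurog1-GFP cells. The 95% interval of its log2 difference with the block ran from -0.39 to 0.39.

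Bmp2, Inhba and Smad9 fell below the filter, a mean signal of 63.5. Bmp2 had 7.15 and 26.0 in Atoh1-GFP cells, against 7.06 and 23.5 in dNeurog1-GFP cells. Inhba, the activin beta A subunit, had 72.9 and 17.9, against 15.7 and 7.90. Gdf7, the roof plate factor required for a class of dI1 neurons in the mouse, has no probe set with its symbol alone and was not measured here.

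The members that passed can be set beside their upstream sequences. The 250 bases before a RefSeq transcript start (GRCm38.p6) are shown for 3 of the 4, with capitals on matches to motifs tied to the factors at hand. The motifs, searched on both strands, were CAGCTG, an E-box of the kind basic helix-loop-helix factors such as Atoh1 bind, GGCGCC, a GC-rich Smad site of BMP-responsive enhancers, and CAGAC, a short Smad site whose other strand reads GTCTG. Over 32851 promoter windows of the same length, 13.0%, 9.59% and 42.2% held the E-box, the GC-rich site and the short site. RefSeq windows were found for 29 of the 40 members.
Tgfb2, chr1:186705990-186706239, minus strand: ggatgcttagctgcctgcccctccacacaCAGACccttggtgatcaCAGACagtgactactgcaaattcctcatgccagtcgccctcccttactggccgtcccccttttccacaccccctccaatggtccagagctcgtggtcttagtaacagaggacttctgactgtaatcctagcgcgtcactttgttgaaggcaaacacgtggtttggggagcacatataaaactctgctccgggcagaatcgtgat
Gdf10, chr14:33923337-33923586, plus strand: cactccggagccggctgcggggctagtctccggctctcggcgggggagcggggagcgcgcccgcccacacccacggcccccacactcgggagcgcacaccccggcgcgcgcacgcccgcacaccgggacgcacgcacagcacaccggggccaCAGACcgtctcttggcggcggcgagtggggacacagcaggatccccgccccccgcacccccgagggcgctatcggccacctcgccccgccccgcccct
Bmper, chr9:23222826-23223075, plus strand: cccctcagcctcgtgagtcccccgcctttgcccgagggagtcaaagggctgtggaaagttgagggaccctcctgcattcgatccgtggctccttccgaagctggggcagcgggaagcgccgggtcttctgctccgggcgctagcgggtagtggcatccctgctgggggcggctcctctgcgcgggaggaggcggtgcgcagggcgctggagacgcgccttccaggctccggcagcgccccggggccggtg
The Tgfb2 window held 2 short Smad sites, starting 221 and 204 bases before the start. The Gdf10 window held 1, at 98 bases, and the Bmper window none of the 3 motifs. None of the 3 windows held the E-box or the GC-rich site. G and C made up 53.6% of the Tgfb2 window, 78.8% of the Gdf10 window and 71.6% of the Bmper window. A match is a string of letters in a window and not a measured site, and enhancers outside the windows were not searched.

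Of the antagonists and modulators, Bmper had the largest difference. Bmper encodes a secreted protein with chordin-like cysteine-rich repeats that binds BMPs and can hold back or promote their signalling. It had 859 and 1716 in Atoh1-GFP cells, against 326 and 227 in dNeurog1-GFP cells. Both Atoh1-GFP arrays were above both dNeurog1-GFP arrays. The log2 difference was 2.03, a 4.1-fold higher level, with 1.32 in replicate 1 and 2.75 in replicate 2. Limma gave adjusted p = 0.027 with the block (standard error 0.33, 95% interval 1.22 to 2.84) and 0.11 without it.

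Fst, follistatin, which binds activins and some BMPs, had 182 and 76.3 in Atoh1-GFP cells, against 236 and 344 in dNeurog1-GFP cells. Its groups did not overlap, but the log2 difference of -1.06 came mostly from replicate 2 (-0.33 in replicate 1, -1.80 in replicate 2) and missed the threshold (limma adjusted p = 0.17 with the block and 0.54 without). With the block it passed after quantile normalization (adjusted p = 0.017). Chrd, chordin, a BMP-binding antagonist, had 181 and 150, against 86.6 and 119, without overlap, and a difference of 0.56 log2 units (with the block, adjusted p = 0.28). Nog, noggin, another BMP-binding antagonist, had 168 and 47.4 in Atoh1-GFP cells, against 87.0 and 25.4 in dNeurog1-GFP cells. Its difference of 0.61 had the same sign within both replicate numbers and did not pass (adjusted p = 0.26).

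Grem1, gremlin, had 166 and 25.3 in Atoh1-GFP cells, against 77.9 and 49.4 in dNeurog1-GFP cells, with opposite signs within the replicate numbers. Bambi, a pseudoreceptor without a kinase domain that dampens TGF-beta family signals, had 356 and 248, against 226 and 292. It also changed sign between the replicate numbers.

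**Figure D2:**
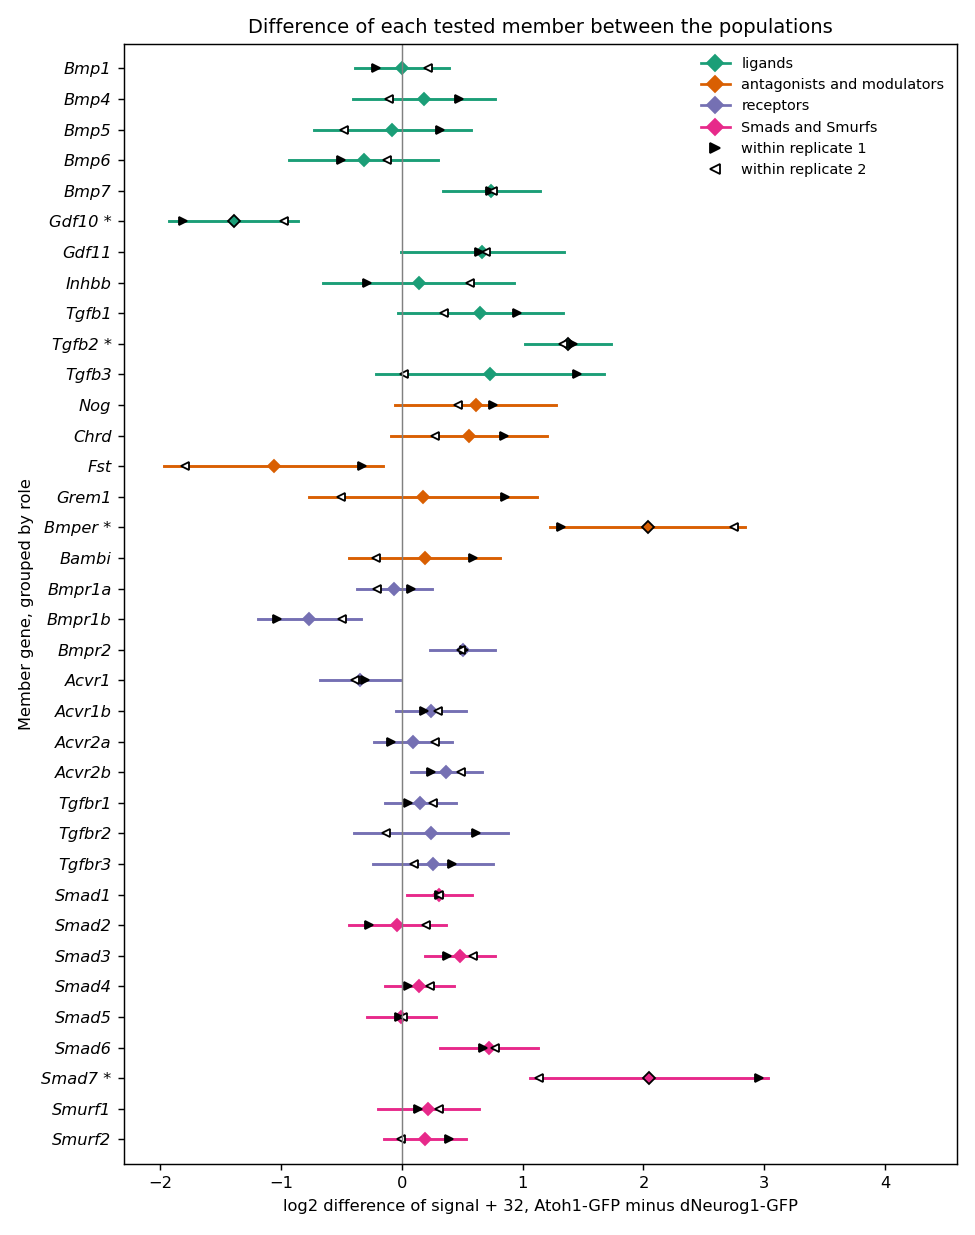
Log2 difference of the 36 tested members (Atoh1-GFP minus dNeurog1-GFP) in units of log2(signal + 32). Diamonds are means over both replicate numbers with the 95% interval of the model with the block, triangles are the differences within replicate 1 (filled) and replicate 2 (open), colours give the role, and the 4 members with a star passed with the block. Tgfb2 has nearly the same value within both replicate numbers (1.42 and 1.33), while Smad7 (2.96 and 1.14) and Bmper (1.32 and 2.75) do not.

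No receptor passed in either model: 0 of 10, with 1 of 10 at an unadjusted p under 0.05 in limma without the block. The shares over all genes were 6.32% with the block, 0.220% without it and 8.61% unadjusted. Counts of 0 and 1 among 10 genes thus lie near the background. The median log2 difference over the 10 receptors was 0.20, within a range of -0.77 to 0.50. The widest differences were in the BMP receptors. Bmpr1b, a type I BMP receptor of the neural tube, had 513 and 777 in Atoh1-GFP cells, against 1085 and 1110 in dNeurog1-GFP cells, without overlap. The difference on the log2 scale was -0.77 (-1.04 in replicate 1, -0.50 in replicate 2; limma adjusted p = 0.063 with the block and 0.45 without). Bmpr1a, the other type I BMP receptor, had 2326 and 2078, against 2200 and 2398, and a log2 difference of -0.06 with a 95% interval of -0.37 to 0.25 with the block. Whether the 2 type I receptors differ from each other in this was not tested.

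Bmpr2, the type II BMP receptor, had 3536 and 5308 in Atoh1-GFP cells, against 2460 and 3780 in dNeurog1-GFP cells. The groups overlapped because replicate 2 was higher in both populations, while the difference was 0.52 in replicate 1 and 0.49 in replicate 2 (limma adjusted p = 0.056 with the block and 0.83 without). Bmpr1b and Bmpr2 passed with the block after quantile normalization (adjusted p = 0.0096 and 0.0048). The dimmer probe sets of Bmpr2 had smaller log2 differences, 0.20 and 0.14.

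Acvr2b, a type II activin receptor that also binds BMPs, had 2552 and 3860, against 2150 and 2734, with a difference of 0.37 log2 units (with the block, adjusted p = 0.15). With the block it passed after quantile normalization (limma adjusted p = 0.043). Acvr2a, the other type II activin receptor, had 2259 and 4136 in Atoh1-GFP cells, against 2405 and 3420 in dNeurog1-GFP cells, with opposite signs within the replicate numbers. Acvr1, a type I receptor for BMPs, had 807 and 677, against 1004 and 897, and a difference of -0.35 log2 units (with the block, adjusted p = 0.21). The dimmer Acvr1 probe sets above the filter had log2 differences of 0.02 and 0.08, of the other sign. Acvr1b, the type I activin receptor, had 1418 and 2361 in Atoh1-GFP cells, against 1247 and 1918 in dNeurog1-GFP cells, or 0.24 log2 units higher.

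The receptors for Tgfb2 had smaller log2 differences than Tgfb2 itself. Tgfbr1, the type I TGF-beta receptor, had 6986 and 7178 in Atoh1-GFP cells, against 6752 and 6003 in dNeurog1-GFP cells. The difference on the log2 scale was 0.15, with a 95% interval of -0.14 to 0.45 with the block. Tgfbr2, the type II receptor, had 316 and 160, against 195 and 178, with opposite signs within the replicate numbers and an interval of -0.40 to 0.88. Tgfbr3, betaglycan, the co-receptor that presents Tgfb2, had 340 and 292, against 248 and 271, without overlap, and an interval of -0.24 to 0.75. The upper bounds of all 3 intervals lie below the Tgfb2 difference of 1.38, though these differences were not tested against it.

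**Figure D3:**
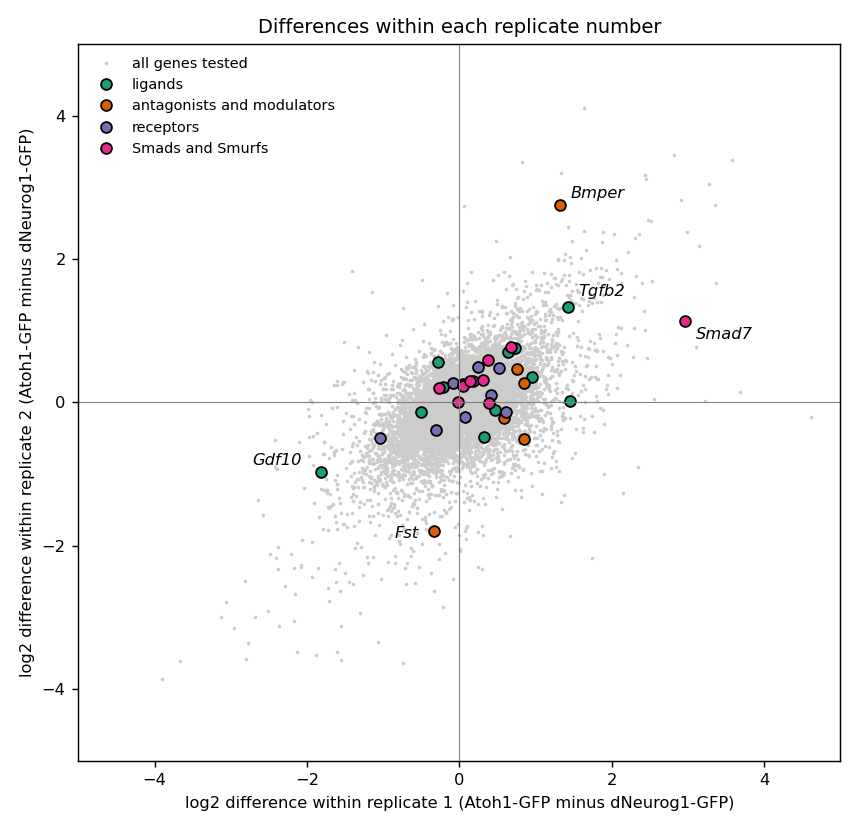
Log2 difference within replicate 1 (horizontal) and within replicate 2 (vertical), Atoh1-GFP minus dNeurog1-GFP, for all 12740 tested genes (grey) and the 36 tested members (coloured by role). Bmper, Tgfb2 and Smad7 lie in the upper right, Gdf10 and Fst in the lower left, and most other members lie within the cloud of all genes.

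Among the Smads and Smurfs, the inhibitory Smads had the widest differences. Smad7 blocks receptor-regulated Smads and brings Smurf ubiquitin ligases to the receptors. Its brightest probe set had 2483 and 636 in Atoh1-GFP cells, against 291 and 272 in dNeurog1-GFP cells. Both Atoh1-GFP arrays were higher, the replicate 1 array far more than the replicate 2 array. The log2 difference was 2.05, with 2.96 in replicate 1 and 1.14 in replicate 2 (limma adjusted p = 0.042 with the block, standard error 0.40, and 0.28 without it). This probe set has the suffix that Affymetrix gives to sets that may read other transcripts as well. The second Smad7 probe set had 831 and 655, against 475 and 258, and a log2 difference of 1.01 (0.77 in replicate 1, 1.25 in replicate 2). Both probe sets were higher in Atoh1-GFP cells, but they disagreed on the size, and without the Atoh1-GFP replicate 1 array the difference of the brightest set was 1.09.

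Smad6, the inhibitory Smad most selective for BMP signals, had 742 and 517 in Atoh1-GFP cells, against 454 and 291 in dNeurog1-GFP cells, without overlap. The log2 difference of 0.72 (0.67 in replicate 1, 0.77 in replicate 2) missed the threshold, at limma adjusted p = 0.064 with the block and 0.59 without. With the block it passed after quantile normalization (adjusted p = 0.027). Smad6 and Smad7 are also known in endothelium and heart. Of the heart muscle genes 8 of 8 were higher in both replicates of Atoh1-GFP cells than in the same-numbered dNeurog1-GFP ones. With the block 2 of them passed. Of 5 tested endothelial genes 4 were so higher and 0 passed. Over all genes 33.3% were so higher and 2.68% were called higher with the block. The heart muscle genes Myh6, Myl7 and Nppa and the endothelial genes Pecam1 and Tek lay below the filter of 63.5 on both dNeurog1-GFP arrays. They cleared it only through the Atoh1-GFP arrays, so the filter itself favoured genes high in that group. Myl7 was 1 of the 2 that passed. The summed signals of both lists are given above, and their part in the Smad6 and Smad7 differences was not tested.

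None of the signal-carrying Smads passed in either model. Smad3, a Smad of TGF-beta and activin signals, had 3556 and 4346 in Atoh1-GFP cells, against 2739 and 2886 in dNeurog1-GFP cells, without overlap. The difference on the log2 scale was 0.48 (limma adjusted p = 0.077 with the block). With the block Smad3 passed after quantile normalization and on the signals as deposited. Smad2, its partner in the same branch, had 1044 and 772, against 1268 and 670, with opposite signs within the replicate numbers. Smad1, a BMP Smad, had 3612 and 4556, against 2910 and 3675, a log2 difference of 0.31 within both replicate numbers (adjusted p = 0.17 with the block). Smad5, another BMP Smad, had 1455 and 1849 in Atoh1-GFP cells, against 1476 and 1834 in dNeurog1-GFP cells, and the 95% interval of its log2 difference was -0.29 to 0.28. Smad9, the remaining BMP Smad, was below the filter, with 50.4 and 12.6, against 25.5 and 2.56.

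Smad4, the partner shared by all receptor-regulated Smads, had 5558 and 6457 in Atoh1-GFP cells, against 5355 and 5486 in dNeurog1-GFP cells. The difference on the log2 scale was 0.14, with a 95% interval of -0.14 to 0.43. The ubiquitin ligases that target Smads and receptors did not pass either. Smurf1 had 553 and 448, against 501 and 357, a log2 difference of 0.22. Smurf2 had 2142 and 2319, against 1624 and 2328, a log2 difference of 0.19.

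**Figure D4:**
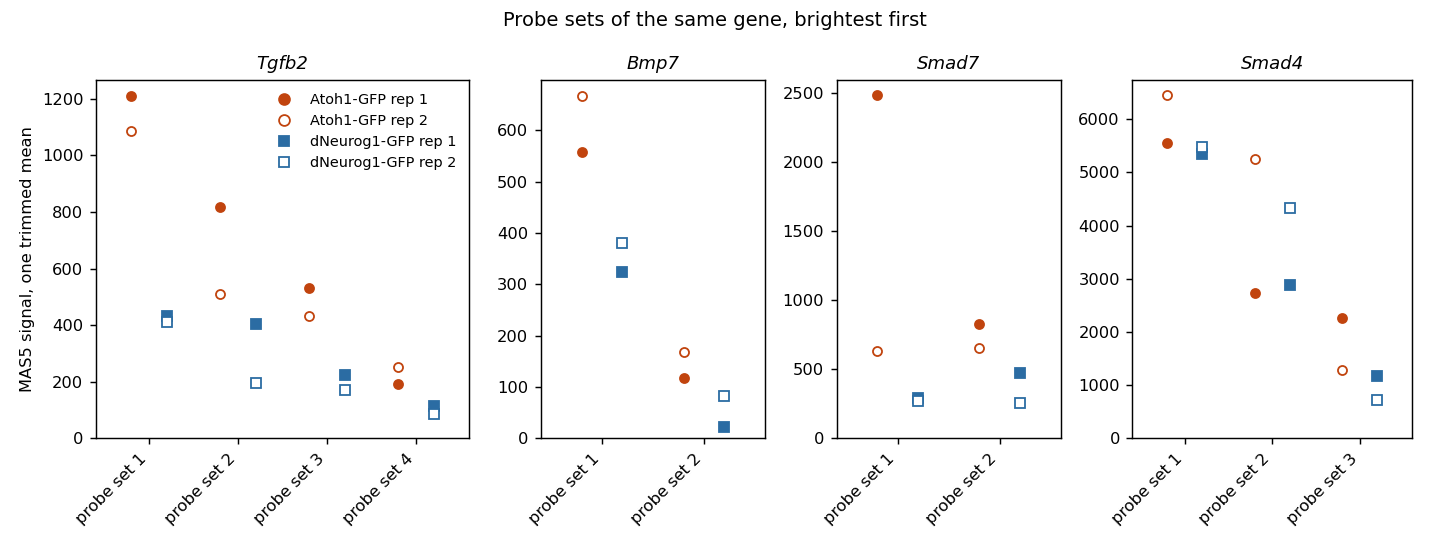
MAS5 signal (every array at a trimmed mean of 500) of the probe sets above the filter for Tgfb2, Bmp7, Smad7 and Smad4, brightest first, with Atoh1-GFP arrays as red circles and dNeurog1-GFP arrays as blue squares, filled for replicate 1 and open for replicate 2. All 4 Tgfb2 probe sets have both Atoh1-GFP points above both dNeurog1-GFP points, and the brightest Smad7 probe set shows the high value of 2483 in Atoh1-GFP replicate 1.

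The rest of the pathway was read from lists chosen by known role. With the block, 4 of 81 further pathway genes tested rose in Atoh1-GFP cells and 2 fell, and 0 passed without it (10 at an unadjusted p under 0.05). The share called was close to the background of 6.32%, and the median log2 difference was 0.08, against 0.01 over all genes. None of 4 other ligands and 16 other extracellular modulators passed in either model. The brightest of these ligands, Inha and Gdf9, had log2 differences of 0.05 and -0.16. Among the modulators Smoc1 had 366 and 70.9 in Atoh1-GFP cells, against 804 and 1015 in dNeurog1-GFP cells (log2 difference -2.21, adjusted p = 0.061 with the block). Ltbp1, which binds latent TGF-beta in the matrix, had 190 and 120, against 372 and 298 (-0.99, adjusted p = 0.053). Kcp, a secreted BMP modulator with chordin-like repeats, had 650 and 600, against 309 and 383 (0.80, adjusted p = 0.063). These 3 were chosen after their values were seen. The brightest of the extracellular modulators, Fstl1 and Twsg1, had log2 differences of 0.04 and -0.02.

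Rgmb, a membrane-anchored BMP co-receptor, was the 1 gene of 10 other receptors and co-receptors that rose with the block (background 2.68%). It had 3377 and 3328 in Atoh1-GFP cells, against 928 and 1698 in dNeurog1-GFP cells. The log2 difference was 1.39 (1.83 in replicate 1, 0.96 in replicate 2; limma adjusted p = 0.023 with the block and 0.19 without). Its relative Rgma had 245 and 314, against 425 and 546, without overlap and in the other direction (-0.73, adjusted p = 0.075 with the block). The difference between these paralogues was not tested. The brightest genes of the list by mean signal were the adhesion receptor Neo1, which binds Rgm proteins, and Tmeff1, with log2 differences of -0.39 and 0.52 that did not pass.

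Of 30 other intracellular regulators, 1 was higher and 1 lower with the block, near the shares over all genes (2.68% higher and 3.63% lower). The ubiquitin ligase Nedd4l, which acts on activated Smad2 and Smad3, had 1184 and 1371 in Atoh1-GFP cells, against 656 and 818 in dNeurog1-GFP cells (log2 difference 0.77, limma adjusted p = 0.030 with the block and 0.36 without). Skor1, a Ski-family corepressor, was lower: it had 69.3 and 60.7, against 425 and 736 (-2.61, adjusted p = 0.0085 with the block and 0.058 without). Skor1 is also known as a factor of particular dorsal interneuron classes. Fkbp1a, which holds type I receptors inactive, and the corepressor Skil were the brightest of the list, with log2 differences of 0.05 and 0.55 that did not pass.

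Of 15 tested BMP-responsive genes, 2 were higher with the block, Smad7 and Id1, and 0 were lower. Over all genes 2.68% were called higher and 3.63% lower. The 15 include the members Bambi, Smad6 and Smad7, so the Smad7 call is the one already given above. Id1, an inhibitor of basic helix-loop-helix factors and a direct BMP target, had 7132 and 4286 in Atoh1-GFP cells, against 4630 and 2867 in dNeurog1-GFP cells (log2 difference 0.60, 0.62 in replicate 1, 0.57 in replicate 2; limma adjusted p = 0.037 with the block and 0.77 without). Id3, another BMP target, had 10067 and 7213, against 7510 and 4210 (0.60, adjusted p = 0.060 with the block). Id2, Id4 and the homeobox genes Msx1, Msx2 and Msx3 had log2 differences of 0.11, -0.05, -0.03, 0.24 and -0.02 and did not pass. The median over the 15 genes was 0.20, with 0.41 in replicate 1 and 0.05 in replicate 2.

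Of 13 tested TGF-beta-responsive genes, 2 were higher with the block, Smad7 and Cdkn2b, and 1 was lower, Ccn2. Here too Smad7 is the member already counted, and the background was 2.68% higher and 3.63% lower. Cdkn2b, a cyclin-dependent kinase inhibitor, had 173 and 165 in Atoh1-GFP cells, against 9.92 and 39.4 in dNeurog1-GFP cells (log2 difference 1.88, limma adjusted p = 0.028 with the block and 0.31 without). Both dNeurog1-GFP signals lay below the filter of 63.5. The mean signal of 96.9 cleared it only through the Atoh1-GFP arrays, so the filter itself favoured a gene high in that group. Ccn2, a matricellular protein also known as connective tissue growth factor, had 312 and 234, against 628 and 768 (-1.27, adjusted p = 0.029 with the block and 0.16 without). Genes on the list thus went both ways. Tsc22d1 and Cdkn1c, the brightest by mean signal, had log2 differences of 0.27 and -0.03.

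**Figure D5:**
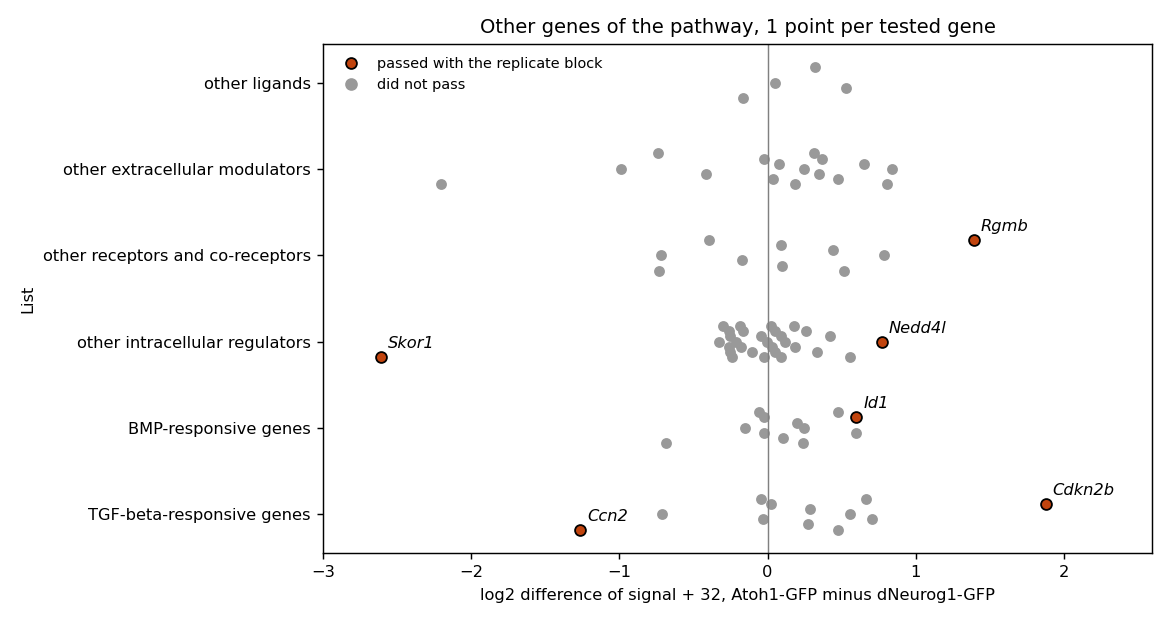
Log2 difference, Atoh1-GFP minus dNeurog1-GFP, of the 81 further pathway genes tested, 1 point per gene and 1 row per list, with members left out and vertical spread within a row added for legibility. Red points passed with the replicate block: Rgmb, Nedd4l, Id1 and Cdkn2b were higher and Skor1 and Ccn2 lower in Atoh1-GFP cells.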

How the data were processed

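RNA of GFP-sorted E10.5 neural tube cells was measured on 4 Affymetrix mouse arrays, 2 per population. The deposited values are signal intensities on a linear scale, and MAS5 is the only tool that the submitters' processing notes name. No version or scaling target is stated there. Trimmed means (2% at each end) over the 45101 probe sets were 250 and 500, by replicate number, and each array was rescaled to 500. The platform annotation gave 1 symbol to 34945 of the 45037 probe sets other than controls, several to 932 and none to 9160. Probe sets with a mean at or above the 40th percentile (63.5) were kept, 27022 in all. Each gene was read from its brightest kept single-symbol probe set.

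Differences (Atoh1-GFP minus dNeurog1-GFP) in log2(signal + 32) were tested over 12740 genes with limma 3.58.1 (eBayes with an intensity trend) in R 4.3.3, with p-values adjusted after Benjamini and Hochberg and a threshold of 0.05, once without a block and once with the replicate number as one. The labels do not say that equal numbers share a day or litter. Without the block the p-values measure the spread between the 2 arrays of each population. With the block they measure how far the differences within the 2 replicate numbers disagree. In both models limma moderates this spread across genes, and the number of arrays limits the precision. The methods were tested on simulated data. Alternatives covered scaling, pseudocount, filter, probe set choice, variance trend and single arrays.

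The members and lists were chosen with earlier results of these data known. All members are named, with other pathway genes that passed in either model and the brightest 2 of each list. Further list genes (Smoc1, Ltbp1, Kcp, Rgma, Id2, Id4 and the Msx genes) were chosen after their values were seen. The same holds for the markers Nefl, Sox1, Sox3, Fabp7, Ednrb, Sox10, Ets1, Zic1, Wnt3a, Rspo1, Lmx1a and Lmx1b. It also holds for the markers Myh6, Myl7, Nppa, Pecam1 and Tek. Symbols were used as the annotation gives them, and promoter sequences are from RefSeq (GRCm38.p6).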

Additional observations from a re-analysis of the deposited data

How the results depend on the processing

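Calls over all genes depended on the block and on single arrays. Against 28 genes without the block, 805 passed with it, 13 on the signals as deposited (1 higher and 12 lower in Atoh1-GFP cells, against 16 and 12 of the 28), 1169 on those signals with the block, 1691 after quantile normalization with the block, 14 without a filter, 18 with a 60th percentile filter, 14 on means over probe sets and 0 without the intensity trend, where 986 had an unadjusted p under 0.05 in limma. At one 75th percentile 23 passed, 10 higher and 13 lower. Leaving out single arrays gave 156 to 382 genes, and the lone array is then assumed to vary like the other population. For the members, 0 without the block became 4 with it, 9 on deposited signals with it, 11 after quantile normalization with it, and 2 to 4 without single arrays; Bmper was called in each of those 4 fits. For the other pathway genes, 0 became 6, 11, 16 and 2 to 6. The other alternatives called 0 members. With the block, leaving out an array leaves no residual degree of freedom, and the difference is that within the other replicate number.

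Signs reversed only for members that did not pass. Bmp1 had 0.0041 on deposited signals without and with the block, 0.0021 after quantile normalization without and with it, 0.00084 with a pseudocount of 64 and 0.19 on means over probe sets. Means over probe sets gave 0.0013 for Bmpr1a, 0.11 for Smad2 and 0.14 for Smad5, and quantile normalization 0.011 for Smad5 without and with the block. Over fits without single arrays, the log2 differences ran from -0.31 to 0.30 for Bmp1, -0.045 to 0.41 for Bmp4, -0.41 to 0.25 for Bmp5, -0.96 to 1.24 for Inhbb, -0.043 to 1.51 for Tgfb3, -0.059 to 1.28 for Nog, -0.72 to 1.07 for Grem1, -0.048 to 0.42 for Bambi, -0.14 to 0.018 for Bmpr1a, -0.12 to 0.60 for Acvr1b, -0.34 to 0.52 for Acvr2a, -0.19 to 0.67 for Tgfbr2, -0.48 to 0.41 for Smad2, -0.17 to 0.17 for Smad5, -0.0081 to 0.45 for Smurf1 and -0.062 to 0.45 for Smurf2. Without a change of sign, they ran from -0.58 to -0.051 for Bmp6, -2.01 to -0.78 for Gdf10, 0.046 to 1.29 for Gdf11, 0.37 to 0.93 for Tgfb1, -1.55 to -0.57 for Fst, -1.05 to -0.48 for Bmpr1b, 0.20 to 0.81 for Bmpr2, -0.47 to -0.23 for Acvr1, 0.073 to 0.66 for Acvr2b, 0.068 to 0.24 for Tgfbr1, 0.16 to 0.36 for Tgfbr3, 0.14 to 0.47 for Smad1, 0.036 to 0.25 for Smad4, 0.42 to 1.02 for Smad6 and 1.09 to 3.004 for Smad7. The cause of these changes was not tested.

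The replicate block rests on a shared number. Deviations of same-numbered arrays from their population's mean correlated at 0.66 over 12740 genes, which are not independent replicates, and at 0.588 after quantile normalization.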

Other observations

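Members with several probe sets gave a view of how far 1 gene's readings differ. Of 16 members with more than 1 probe set above the filter, all probe sets had the same sign for 11 and mixed signs for 5. In Smad4 the third probe set had 2265 and 1281 in Atoh1-GFP cells, against 1175 and 728 in dNeurog1-GFP cells, or 0.86 log2 units higher (0.93 in replicate 1, 0.79 in replicate 2), while the brighter ones had 0.14 and 0.10. In Smad5 the second probe set had a log2 difference of 0.40, against -0.00 for the first and 0.02 for the third. The 5 Bmpr1a probe sets ranged from -0.30 to 0.21, and the 4 of Tgfb2 from 0.93 to 1.38. Which transcript stretches these probe sets read was not analysed here.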
